A study of Mus musculus with 12 samples.

Results

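The epithelium of the mouse prostate has an outer layer of basal cells on the basement membrane and an inner layer of luminal cells that face the duct, and the results below compare these layers in the young adult. RNA of sorted luminal and basal cells from 3-month-old C57BL/6 mice was sequenced, with 3 luminal and 3 basal libraries and the cells of 2 mice pooled in each. These 6 of the series' 12 libraries were chosen by their labels for cell type and age, and the other 6 hold the same cell types at 24 months. No transgene or treatment is named for any group. Which antibodies and gates sorted the cells is not stated in the sources used here. Of 24054 listed genes, 14201 passed the filter on low counts and were tested.

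Basal cells carry keratins 5 and 14 and p63, and anchor to the basement membrane through hemidesmosomes. Luminal cells carry keratins 8 and 18, seal the duct with tight junctions, respond to androgen, and make the secreted proteins of prostatic fluid in the endoplasmic reticulum. Signals such as Notch, EGF, BMP and Wnt ligands pass between these layers and between epithelium and stroma in prostate growth.

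The 6 libraries held 20012691 to 27663450 counted reads. The reads made by 1 distinct fragment were estimated per library as the median reads of genes read in only that library of its group. By that estimate the basal libraries held 378951 to 564923 distinct fragments and the luminal libraries 744442 to 870117. Low counts were not all multiples of the estimate, so fragment numbers, and the floors and bounds below that rest on them, are approximate. Between 11706 and 12312 genes were above 0 in basal and 13359 to 13472 in luminal libraries. The cell types separated on the leading principal component (56.2% of the variance), and the next one (15.3%) spread the 3 basal libraries, with replicates 1 and 3 at its ends and the luminal libraries together near its middle. Values below are CPM, reads scaled to equal library totals with TMM factors, and where 2 mean values are joined by "against" the luminal mean comes first (n = 3 each). Levels of different genes are compared only in TPM, which is also scaled by gene length. The 10 most abundant genes held 41.3 to 42.7% of TPM in luminal and 9.07 to 9.47% in basal libraries. This lowers the TPM of other luminal genes, so differences between the layers are read from the log2 values of the test and not from TPM. A mean level worth under 3 distinct fragments over the 3 libraries of a group, 2.19 CPM in basal and 1.21 CPM in luminal cells, is called under the floor. For such a gene both levels are given and no fold, unless its counts, divided by the estimated reads per fragment, rounded to 0 in every library of that group. There, described as no whole fragment, the fold is a lower bound against the floor. Floors cover counting error only. Because these are bulk samples, fewer cells of a type and less RNA per cell cannot be told apart.

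The defining markers followed the labels. Krt5 (chr15:101707069-101712905 in GRCm38), a type II keratin of basal epithelia, was at 2688, 2341 and 2190 CPM in the basal libraries and 7.8, 6.88 and 8.68 CPM in the luminal libraries. Trp63 (chr16:25683763-25892088), the gene of the basal master regulator p63, was at 32.9, 48.3 and 90.1 CPM in basal and 0, 0 and 0.043 CPM in luminal libraries, at least 47.1-fold lower in luminal cells. Cldn3 (chr5:134986214-134987476), a claudin of tight junctions, was at 26.9, 32.4 and 16.7 CPM in basal and 1122, 1204 and 990.4 CPM in luminal libraries. Tgm4 (chr9:123034741-123067558), the transglutaminase that clots seminal fluid, was at 109.6, 114 and 88 CPM in basal and 3180, 2792 and 2042 CPM in luminal libraries. All 4 are protein-coding genes. The basal level of Trp63 was 57.1 ± 29.6 CPM (SD, n = 3).

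In total 5341 of the 14201 tested genes (37.6%) differed between the layers by edgeR's quasi-likelihood test at a Benjamini-Hochberg adjusted p under 0.05, the test behind every call and adjusted p below. The luminal level was the higher one for 2704 of them (19.0% of those tested) and the basal level for 2637 (18.6%), and 4010 (28.2%) were called and differed at least 2-fold. The median log2 difference of all tested genes was 0.19, or 0.08 with genes under the floor set at their bound, and list medians below are read beside that value. List counts below are read beside the 19.0% higher and 18.6% lower of all tested genes. The difference of the means was at least 10-fold for 327 genes higher in luminal and 316 genes higher in basal cells. It was at least 100-fold for 13 and 17 of them. In 885 of the calls 1 of the groups was under its floor.

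Secreted proteins, 1 transcription factor and 1 glycosyltransferase were among the 12 leading luminal genes, ranked by the ratio of means among called genes without overlap and with at least 50 CPM in the higher group. Sbp, the spermine-binding protein of prostatic fluid, was at 219, 612 and 277 CPM in basal and 59890, 67150 and 59330 CPM in luminal libraries (log2 7.39 ± 0.87 SE, adjusted p = 7.86e-06). Svs2, which forms the copulatory plug, was at 1166, 989 and 1138 CPM in basal and 119200, 105500 and 119900 CPM in luminal libraries (log2 6.71 ± 0.35 SE, adjusted p = 2.02e-09). Basal replicate 2 was the highest basal library for Sbp and the lowest for Svs2. Spink3 (5863 against 49.5 CPM) and Spink5 (871 against 6.64 CPM) encode serine protease inhibitors, and Azgp1 (308 against 2.46 CPM) and Pate4 (9037 against 83.8 CPM) other secreted proteins. Rnase1 (302 against 1.65 CPM) encodes a secreted ribonuclease and Abo (274 against 2.39 CPM) the blood group glycosyltransferase. Elf5, an ETS factor of glandular epithelia, was at 0.213, 2.35 and 2.88 CPM in basal and 261, 222 and 281 CPM in luminal libraries, with the basal mean under the floor. Nupr1, a stress-induced chromatin protein, was at 1.25, 6.13 and 3.23 CPM in basal and 640.2, 624 and 560.3 CPM in luminal libraries and ranked first of the 12. The remaining leading genes were 5430419D17Rik (1757 against 12.9 CPM), which RefSeq names Cdcp3, and 9530002B09Rik (3118 against 27 CPM).

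Structural proteins led the basal side. Col17a1, the transmembrane collagen of hemidesmosomes, was at 1213, 1078 and 982 CPM in basal and 0.805, 0.775 and 0.816 CPM in luminal libraries, where it was under the floor. Krt17 (log2 -7.75 ± 0.30 SE, adjusted p = 1.34e-10) and Krt14 (log2 -7.57 ± 0.27 SE, adjusted p = 7.48e-11) are type I keratins of basal and stressed epithelia. Krt16, a keratin of activated epidermis, was at 153, 182 and 165 CPM in basal and 2.67, 0.145 and 0.0859 CPM in luminal libraries. The luminal value of Krt16 came almost wholly from luminal replicate 1. Cdh3, P-cadherin, was at 1.06 against 299.5 CPM, and Lamb3 (log2 -7.35 ± 0.29 SE, adjusted p = 1.69e-10) is a laminin chain of basement membranes. Fmod, a small proteoglycan that binds collagen fibrils and is best known from connective tissue, was at 1061, 1054 and 1014 CPM in basal and 4.18, 7.85 and 4.34 CPM in luminal libraries. Slco4a1, an organic anion transporter, was at 2.67 against 543 CPM, Tns4, a tensin of focal adhesions, at 1.94 against 384 CPM, Lgals7, an epithelial galectin, at 0.983 against 169 CPM, and Bai1, an adhesion receptor, at 0.16 against 229 CPM.

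**Figure D1:**
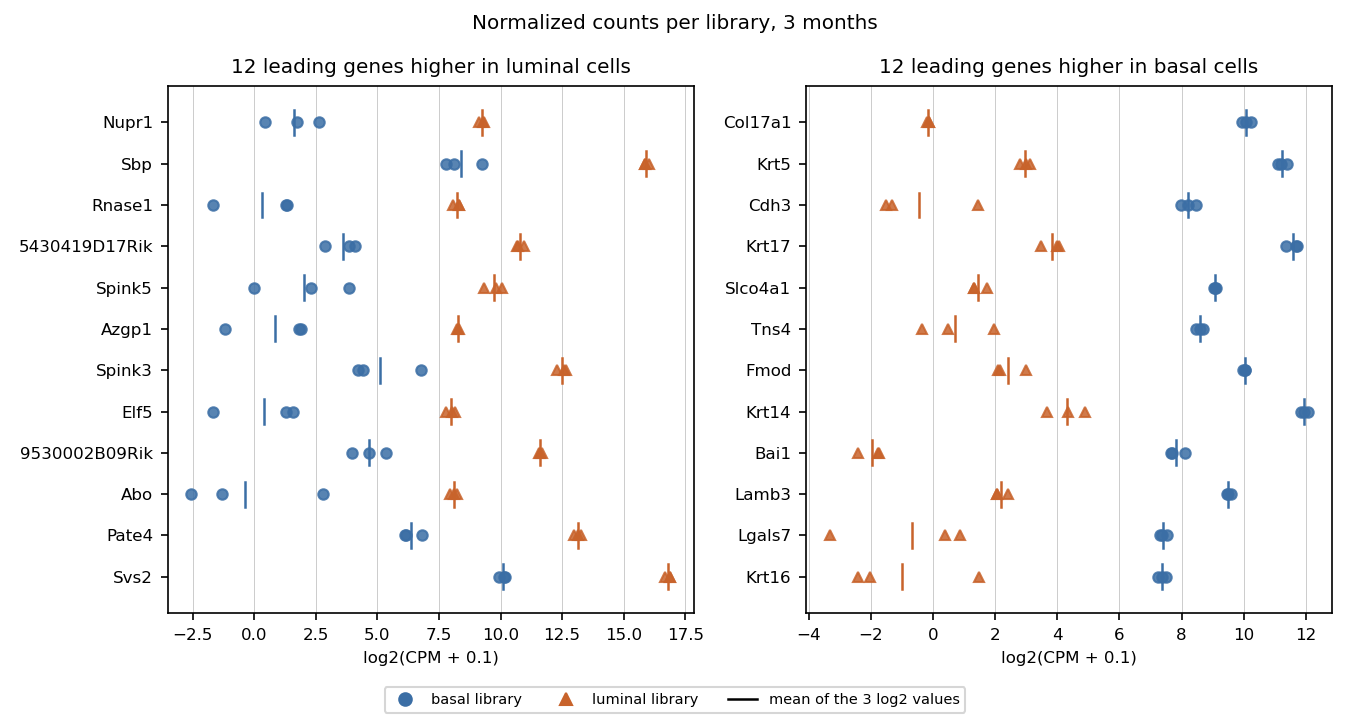
Each point is 1 library and each short line the mean of 3 log2 values, on a horizontal axis of log2(CPM + 0.1), for the 12 leading genes of each cell type at 3 months. The 24 genes were chosen by a rule that required no overlap of basal and luminal libraries.

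Per length, the most abundant luminal messages were Sbp, Svs5 and Svs2, at means of 121400, 114200 and 111100 TPM. Spink3 (27380 TPM), Pate4 (14160), the short gene Mir6236 (6749), the elongation factor Eef1a1 (6479), the beta-defensin Defb50 (6478), Actg1 (6426) and 9530002B09Rik (6211) made up the rest of the first 10. Svs2, Sbp and Svs5 together took 20.9 to 22.3% of the reads of a luminal library and 0.183 to 0.202% of a basal library. In basal cells the order began with the cytoplasmic actins Actg1 (15960 TPM) and Actb (14230) and the claudin Cldn4 (12200). Tpt1 (8342), Eef1a1 (8090), Rps27rt (7057), Apoe (6784), Mir6236 (6681), the metallothionein Mt2 (6463) and Rps28 (6333) followed. Rps27rt is a near-identical copy of a ribosomal protein gene, so its value is uncertain. Apoe, the lipid carrier, was at 4016, 3801 and 3837 CPM in basal and 38.8, 28.3 and 23.3 CPM in luminal libraries (log2 -7.01 ± 0.20 SE, adjusted p = 1.66e-11). The 10 most abundant genes by reads took 7.43 to 8.41% of a basal and 27.9 to 28.3% of a luminal library.

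Most basal identity genes were lower in luminal cells. Of 24 tested members 21 were lower and 0 higher, with a median log2 of -5.79 (-4.51 with bounds). Per length Krt14 (5100 TPM), Krt15 (4467) and Krt17 (4378) were above Krt5 (2292) in basal cells. In luminal cells Krt15 was at 119.6 TPM and Krt14, Krt17 and Krt5 were at 19.1, 14.5 and 5.29 TPM. Krt15 was lower in luminal cells (log2 -4.73 ± 0.25 SE, adjusted p = 2.11e-09). Krt6a, a wound keratin, was at 22 against 32.9 CPM and did not pass the test. Among transcription factors, Snai2, a zinc finger repressor, was at 0.83 against 50.5 CPM, and Runx1 (log2 -2.73 ± 0.21), Tfap2c (log2 -3.15 ± 0.44) and Tfap2a (log2 -1.50 ± 0.15) were lower. Of surface and matrix genes, Pdpn (podoplanin, log2 -6.16 ± 0.29), Bcam (Lutheran glycoprotein, log2 -4.29 ± 0.13) and Sfn (14-3-3 sigma, log2 -3.98 ± 0.19) were lower in luminal cells. Ngfr, a neurotrophin receptor, was at 22.7, 26.3 and 25.9 CPM in basal and 17.2, 2.96 and 2.36 CPM in luminal libraries and did not pass (adjusted p = 0.195). It was called lower on fragment-equivalent counts (0.00456), with limma-voom (0.0124) and with the replicate block (0.0461), each an adjusted p.

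Luminal identity genes divided. Of 37 tested members 23 were higher and 5 lower in luminal cells, with a median log2 of 1.39 (1.60 with bounds). Krt8 (log2 0.83 ± 0.09 SE, adjusted p = 3.09e-06) and Krt18 (log2 0.63 ± 0.10), the keratins of simple epithelia, were higher by less than 2-fold. They reached 2652 ± 24.9 TPM (SD, n = 3) and 2703 ± 70.2 TPM in basal cells against 3347 ± 106 and 2973 ± 81.8 TPM in luminal cells. In basal cells Krt8 was thus at 2652 TPM and Krt5 at 2292 TPM. Krt19, a further simple keratin, was at 503, 370.3 and 367 CPM in basal and 2029, 1993 and 1787 CPM in luminal libraries (log2 2.23 ± 0.16). Krt7 went the other way, at 278, 209 and 245 CPM in basal and 125, 144 and 103 CPM in luminal libraries (log2 -0.98 ± 0.18 SE, adjusted p = 0.000433). Of surface proteins, Tspan1 (log2 5.48 ± 0.26), Mme (neprilysin, log2 4.35 ± 0.21), Prom1 (CD133, log2 3.92 ± 0.21), the calcium channel Trpv6 (log2 6.43 ± 0.28), the protease Tmprss2 (log2 2.58 ± 0.29) and Cd24a (log2 1.87 ± 0.09) were higher in luminal cells. Dpp4 (CD26), often used to sort luminal cells, was at 0.0712, 2.4 and 0.043 CPM in basal and 60.6, 42 and 39.7 CPM in luminal libraries. Epcam, the pan-epithelial adhesion molecule, was at 900.3 against 756 CPM and did not pass (adjusted p = 0.107), but was called higher with DESeq2 (0.0397) and the 20 CPM filter (0.0173). The tetraspanin Cd9 (log2 -1.48 ± 0.14) and the metalloreductase Steap4 (log2 -2.44 ± 0.44) were lower in luminal cells.

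Transcription factors of the luminal list did not move together. Foxa1, a pioneer factor that opens chromatin, was lower in luminal cells, at 778, 767 and 809 CPM in basal and 241, 250.2 and 220.1 CPM in luminal libraries (log2 -1.73 ± 0.12 SE, adjusted p = 4.03e-08). Sox9 was also lower (log2 -0.59 ± 0.12). Hoxb13, a prostate homeobox factor (log2 2.94 ± 0.24 SE, adjusted p = 1.6e-07), Gata2 (log2 4.18 ± 0.49) and Gata3 (log2 1.11 ± 0.17) were higher in luminal cells. Spdef, an ETS factor of secretory epithelia, was at 0, 0 and 1.03 CPM in basal and 39.6, 33.4 and 53.5 CPM in luminal libraries, at least 19.2-fold higher. The androgen-induced Fkbp5 (log2 0.87 ± 0.29) was higher in luminal cells. That call was lost without luminal replicate 2 (adjusted p = 0.12) or 3 (0.0737) and in the 6 young libraries alone (0.0895). The steroid 5-alpha-reductase Srd5a1, which makes dihydrotestosterone, was lower (log2 -3.79 ± 0.98).

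Of 14 genes used to mark proximal luminal or progenitor cells, 7 were higher and 2 lower in luminal cells (median log2 1.84 with and without bounds). Clu, a secreted chaperone, was at 133, 144 and 232 CPM in basal and 5883, 5486 and 5490 CPM in luminal libraries (log2 5.05 ± 0.25). Psca (prostate stem cell antigen, log2 4.14 ± 0.86) and Car2 (carbonic anhydrase 2, log2 2.68 ± 0.29) were higher in luminal cells, and the receptor Kit was at 37.4 against 1.95 CPM. The retinal dehydrogenase Aldh1a1 was lower (log2 -1.90 ± 0.12). Ly6a (Sca-1) was at 77.6 against 109 CPM and did not pass (adjusted p = 0.067), but was called lower under 5 alternatives (0.0245 to 0.0469), of which 1 left out luminal replicate 1 (0.0469).

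The anchoring apparatus was a basal feature. Of 24 tested hemidesmosome and integrin genes, 19 were lower in luminal cells and 0 higher (median log2 -2.22, -2.28 with bounds). Itga6 and Itgb4, which pair as the laminin receptor of hemidesmosomes, were at 1026, 881 and 916 and 1047, 918 and 961 CPM in the basal libraries. In the luminal libraries they were at 218, 208 and 172 and 102, 141 and 110.3 CPM. Their log2 differences were -2.24 ± 0.14 and -3.05 ± 0.20 SE, so both integrins, unlike their partner Col17a1, were well above the floor in luminal cells. The plakin Dst, which ties keratin to the hemidesmosome, was lower (log2 -3.81 ± 0.11), as was the plakin Plec (log2 -1.09 ± 0.14). Among other integrins Itga2 (log2 -4.60 ± 0.49), Itga5 (log2 -3.42 ± 0.36), Itga3 (log2 -2.76 ± 0.11) and Itgb1 (log2 -2.32 ± 0.13) were lower. Itga1 (6 against 20.8 CPM), Itgb8 (2.65 against 13.8 CPM) and the linker Fermt2 (120.5 against 159 CPM) were among the 5 that did not pass. Itga1 was called lower in luminal cells under 5 alternatives (adjusted p 0.00303 to 0.0492), Itgb8 under 2 (0.00666 and 0.0409) and Fermt2 under 4 (0.00969 to 0.046), of which 1 left out basal replicate 1 (0.0402).

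Of 32 basement membrane genes 23 were lower in luminal cells and 1 higher (median log2 -2.98, -2.81 with bounds). Lama3, a chain of the laminin that binds that integrin, was at 468, 486 and 492 CPM in basal and 4.53, 7.66 and 4.34 CPM in luminal libraries (log2 -6.45 ± 0.67). Lamb3, its partner chain, was at 714, 703 and 766 CPM in basal and 4.08, 5.19 and 4.08 CPM in luminal libraries. Col4a1 (log2 -5.08 ± 0.37) and Col4a2 (log2 -4.96 ± 0.62), chains of collagen IV, Hspg2 (perlecan, log2 -4.45 ± 0.54), Agrn (agrin, log2 -3.92 ± 0.13) and Col18a1 (log2 -4.19 ± 0.18) were lower in luminal cells. Lamb2 (218 against 194 CPM) and Lama2 (11.1 against 9.13 CPM) did not pass. Frem1, a matrix protein of epithelial basement membranes, was the exception that was higher in luminal cells, at 0.0356, 0 and 0 CPM in basal and 9.11, 15.8 and 28 CPM in luminal libraries.

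Fibrillar collagens, the collagens of stroma, were low in both layers. Of 14 tested chains, 1 was higher and 3 lower in luminal cells (median log2 0.16). Col1a1 was at 19.5 TPM in luminal and 20.2 TPM in basal cells, and Col3a1 at 12.1 and 14.4 TPM. Neither passed the test (log2 0.46 and 0.26). Col6a3, a chain of collagen VI, was at 18.3, 13.8 and 10.5 CPM in basal and 206, 310.3 and 519 CPM in luminal libraries (log2 4.60 ± 0.52). Its partner chains Col6a1 (27.3 against 13.6 CPM) and Col6a2 (17.1 against 14.7 CPM) did not pass. Col16a1, a fibril-associated collagen, was lower in luminal cells, at 819, 759.7 and 812 CPM in basal and 11.5, 11.3 and 14 CPM in luminal libraries (log2 -6.02 ± 0.23).

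Cell to cell junction genes differed by kind and by member. Of 23 tested desmosome and adherens junction genes, 17 were lower and 3 higher in luminal cells (median log2 -1.04, -1.05 with bounds). Dsp, the desmosomal plakin (log2 -2.28 ± 0.11), Pkp1 (log2 -6.13 ± 0.69) and Cdh1, E-cadherin (log2 -1.39 ± 0.12), were lower. The plakophilins took different sides. Pkp1 was at 260, 219.8 and 228 CPM in basal and 0.101, 4.99 and 4.9 CPM in luminal libraries, whereas Pkp2 was at 0.142, 2.8 and 3.61 CPM in basal and 37.4, 43.7 and 29.7 CPM in luminal libraries. The nectins did likewise, with Pvrl1 lower (log2 -5.35 ± 0.20) and Pvrl4 higher (log2 3.82 ± 0.82) in luminal cells.

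Of 39 tight junction and polarity genes 19 had the higher level in luminal and 8 in basal cells (median log2 1.10, 1.12 with bounds). Claudins set the permeability of tight junctions, and 7 of 13 were higher and 3 lower. Of 11 other tight junction genes 4 were higher and 3 lower (median log2 -0.20), and of 15 polarity genes 8 and 2 (1.10). Summed levels were 8325 against 11570 CPM for claudins and 1579 against 2608 CPM for the other tight junction genes. Cldn8 (67 against 0.464 CPM), Cldn10 (55.4 against 1.19 CPM), Cldn2 (19.1 against 0.53 CPM) and Cldn6 (6.17 against 0 CPM) were under the floor in basal cells. Cldn7 (log2 1.51 ± 0.17) and Cldn23 (log2 2.67 ± 0.44) were higher in luminal cells. Cldn1 was lower, at 942, 839 and 721 CPM in basal and 83.3, 79.2 and 54.4 CPM in luminal libraries (log2 -3.53 ± 0.20), as was Cldn25 (log2 -1.49 ± 0.24). Per length Cldn4 was the most abundant claudin in both layers, at 12200 ± 600.2 TPM in basal and 5456 ± 371 TPM in luminal cells (log2 -0.67 ± 0.10). Cingulin (Cgn, log2 2.33 ± 0.31), Cgnl1 (log2 3.65 ± 0.21), the apical determinant Crb3 (log2 1.94 ± 0.23) and the recycling factors Rab25 (log2 1.22 ± 0.19) and Rab11fip1 (log2 1.29 ± 0.18) were higher in luminal cells. The polarity gene Pard3 was lower (log2 -2.10 ± 0.11), and Ocln, occludin, was at 142 against 163 CPM and did not pass (adjusted p = 0.352).

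**Figure D2:**
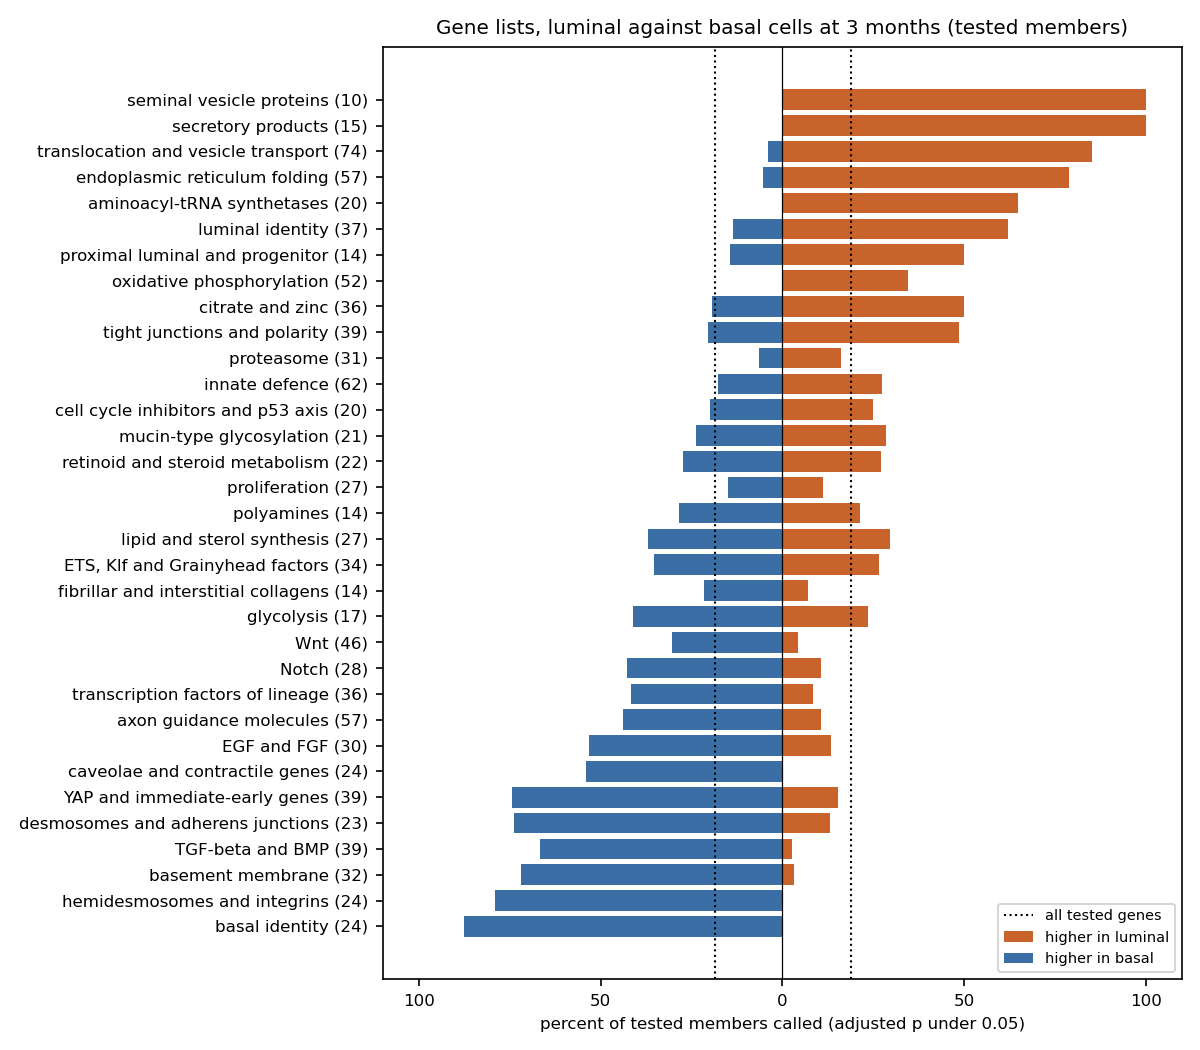
Bars give the percent of each list's tested members called higher in luminal cells (right) or higher in basal cells (left), with the number tested in parentheses and dotted lines at the percent over all tested genes, 19.0 and 18.6. Basal identity, hemidesmosome and basement membrane genes lie at the basal end, and secretory and secretory pathway genes at the luminal end.

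Each of the 15 tested prostate secretions was higher in luminal cells, with a median log2 of 6.66 (5.92 with bounds). Pbsn, probasin, was at 8.54, 90.7 and 27.7 CPM in basal and 2476, 2484 and 2581 CPM in luminal libraries (log2 5.89 ± 0.69 SE, adjusted p = 7.26e-06). Msmb, microseminoprotein (log2 5.53 ± 0.61), Mmp7, a protease that activates defensins (log2 6.19 ± 0.82), and Pigr, which carries IgA into the lumen (log2 6.64 ± 0.66), were also higher. Defb50, a beta-defensin, differed least, at 99, 116 and 86 CPM in basal and 1000, 1100 and 1373 CPM in luminal libraries (log2 3.53 ± 0.15). Defb42 (125 against 0.0973 CPM) and Spinkl (33.7 against 0.0415 CPM) had no whole fragment in basal cells and were at least 57.3-fold and 15.4-fold higher.

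Of genes named after seminal vesicle secretion, 10 of 10 tested were higher in luminal cells (median log2 6.59, 4.31 with bounds), although 5 of the 10 had a basal level under the floor. Ceacam10 was at 3.49, 3.37 and 0.688 CPM in basal and 23.2, 8.19 and 47.3 CPM in luminal libraries. Its call was lost without basal replicate 2 or 3 or luminal replicate 3 (adjusted p 0.0504 to 0.0988). It was lost too on fragment-equivalent counts (0.195) and with limma-voom (0.729). Svs4 was at 17.1, 20.9 and 15.3 CPM in basal and 2276, 860.3 and 1862 CPM in luminal libraries, and Svs5 at 418, 314 and 460.3 and 40470, 34900 and 41870 CPM. Svs3a and Svs3b are near-identical copies, so their split is uncertain, and Svs3a lost its call without any 1 library but luminal replicate 2 (adjusted p 0.0508 to 0.124). Svs3a also lost it with the replicate block (0.095), on fragment-equivalent counts (0.222) and with limma-voom (0.8). The count is 5 of 10 on fragment-equivalent counts and 3 of 10 with limma-voom. The ratio of luminal to basal means was 105 for Svs2, 98.4 for Svs5, 93.8 for Svs4 and 108 for Pate4. Ceacam10 differed less (log2 3.37). Other secreted proteins lay on both sides of these ratios. The ratio was 168 for Sbp, 131 for Spink5, 125.5 for Azgp1 and 118.5 for Spink3. It was 46.1 for Msmb, 25.7 for Tgm4 and 11.5 for Defb50.

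Genes that fold secreted proteins in the endoplasmic reticulum were mostly higher in luminal cells. Of 57 tested folding genes 45 had the higher level in luminal and 3 in basal cells, with a median log2 of 1.82 (1.80 with bounds). When unfolded protein builds up in this compartment, the factors ATF6 and XBP1 bind promoter elements of chaperone genes, the first of which is the endoplasmic reticulum stress element, CCAAT and CCACG at a spacing of 9 bases. The promoters of 50 of the 57 genes were in the RefSeq table (GRCm38.p6), and 10 of the 50 hold that element on either strand in the 250 bases before the annotated start. All 10 are genes called higher in luminal cells, as are 40 of the 50. Of the 11212 tested genes with a promoter, 19 (0.169%) hold it, as do 37 of the 32851 promoters of the table (0.113%). The element is in 11 of 2181 genes higher in luminal cells (0.504%), and these 11 include the 10 just counted. It is in 1 of 2107 genes lower in luminal cells (0.0475%) and in 7 of 6924 genes not called (0.101%). Since this element was described in chaperone promoters, the count describes the list, and no factor was measured. The sequences of 4 of the 10 are shown because they carry the element of the list's best known members, 5′ to 3′ on the strand of the gene, with its CCAAT and CCACG, or their reverse complements CGTGG and ATTGG, in capitals.
Hspa5 (chr2:34771840-34772089, plus strand): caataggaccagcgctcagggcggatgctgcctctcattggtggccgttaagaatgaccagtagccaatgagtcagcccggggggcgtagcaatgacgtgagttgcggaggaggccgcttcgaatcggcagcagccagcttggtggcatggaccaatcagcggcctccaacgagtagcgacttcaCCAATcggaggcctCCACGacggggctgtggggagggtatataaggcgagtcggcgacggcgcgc
Hsp90b1 (chr10:86705445-86705694, minus strand): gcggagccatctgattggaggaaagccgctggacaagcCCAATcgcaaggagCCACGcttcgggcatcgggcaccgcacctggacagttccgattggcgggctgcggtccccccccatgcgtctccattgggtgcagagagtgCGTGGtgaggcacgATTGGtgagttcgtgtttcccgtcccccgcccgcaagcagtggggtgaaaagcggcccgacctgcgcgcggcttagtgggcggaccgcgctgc
Pdia6 (chr12:17266339-17266588, plus strand): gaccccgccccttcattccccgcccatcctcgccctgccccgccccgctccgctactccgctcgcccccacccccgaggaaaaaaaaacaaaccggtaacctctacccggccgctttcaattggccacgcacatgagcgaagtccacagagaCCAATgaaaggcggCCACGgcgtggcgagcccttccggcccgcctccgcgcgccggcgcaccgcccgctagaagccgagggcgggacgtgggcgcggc
Creld2 (chr15:88819396-88819645, plus strand): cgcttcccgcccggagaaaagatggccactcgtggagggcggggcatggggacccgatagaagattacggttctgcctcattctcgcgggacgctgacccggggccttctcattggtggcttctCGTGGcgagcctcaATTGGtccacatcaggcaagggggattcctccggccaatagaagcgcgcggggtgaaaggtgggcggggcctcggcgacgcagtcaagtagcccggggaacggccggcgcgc
The middle of the element lies 56 bases before the start in Hspa5, 202 and 98 in Hsp90b1, 88 in Pdia6 and 116 in Creld2. The shorter ACGTGG, contained in XBP1 sites and able to overlap the end of the stress element, is in 28.0% of the folding promoters and 10.8% of those of all tested genes.

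The chaperones whose promoters are shown differed in size. Hspa5, the Hsp70 of the endoplasmic reticulum (BiP), was at 1521, 1703 and 1567 CPM in basal and 4149, 3543 and 3679 CPM in luminal libraries (log2 1.25 ± 0.12 SE, adjusted p = 8.87e-07). Hsp90b1, its Hsp90, was at 447, 406 and 370.1 CPM in basal and 1610, 1246 and 1306 CPM in luminal libraries (log2 1.77 ± 0.18). The disulfide isomerase Pdia6 was at 176, 148 and 101 and 808, 788 and 856 CPM (log2 2.53 ± 0.18). Creld2, a stress-induced isomerase-like protein, was at 28.4, 17.9 and 11 CPM in basal and 304, 250 and 240.3 CPM in luminal libraries (log2 3.79 ± 0.35 SE, adjusted p = 6.56e-07). Among members above the floor in both layers the largest ratio of means was that of Agr2, an isomerase needed for mucin folding, at 3.63, 5.55 and 0.215 CPM in basal and 269, 289 and 301 CPM in luminal libraries (log2 6.51 ± 0.82). Of 31 chaperones and isomerases 27 were higher and 0 lower, among them Sdf2l1 (log2 4.53 ± 0.28), Dnajc10 (log2 4.26 ± 0.20), P4hb (log2 2.48 ± 0.11) and the oxidase Ero1lb (log2 4.50 ± 0.64). Its paralog Ero1l was at 27.1 against 29.7 CPM and did not pass (adjusted p = 0.737).

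Of 14 sensors and factors of that stress response 7 were higher and 2 lower. Eif2ak3 (PERK, log2 3.03 ± 0.28), Ern1 (IRE1, log2 1.26 ± 0.29), Atf6b (log2 1.99 ± 0.20) and Xbp1 (log2 0.97 ± 0.13) were higher in luminal cells. Atf4 (log2 -0.55 ± 0.11) and Ppp1r15a (log2 -0.37 ± 0.14) were lower. The call of Ppp1r15a was lost without basal replicate 1 or 2 or luminal replicate 1 or 3 (adjusted p 0.0601 to 0.183). It was lost too with RLE factors (0.0602) and with the 20 CPM filter (0.0862). Atf6 (161 against 143 CPM, called only with the 20 CPM filter, adjusted p = 0.0488) and Ddit3 (CHOP, 11.6 against 8.18 CPM) did not pass. Of 12 genes that return misfolded protein to the cytosol for degradation, 11 were higher and Ube2j1 lower (log2 -0.86 ± 0.12). Herpud1, which organizes that complex, was at 69, 72.2 and 104 CPM in basal and 942, 878 and 966 CPM in luminal libraries (log2 3.50 ± 0.28), and Derl3, a channel component, at 93 against 1.89 CPM, luminal mean first.

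The remaining path of secreted proteins was also higher in luminal cells. Of 74 genes of translocation and vesicle transport, 63 were higher and 3 lower (median log2 1.22, 1.21 with bounds). Of 25 genes of the translocon and signal peptidase, 21 were higher and 0 lower, with Sec11c (log2 3.94 ± 0.27), Tram1 (log2 2.99 ± 0.19) and Ssr4 (log2 2.33 ± 0.18) by the most among members above the floor. Of 20 N-glycosylation genes 19 were higher and 0 lower, with Dpagt1, the first enzyme of the path, at 1.28, 5.77 and 0.086 CPM in basal and 41.9, 38.6 and 40.8 CPM in luminal libraries. Of 29 coat and cargo genes 23 were higher, including the cargo receptors Tmed3 (log2 2.98 ± 0.23) and Tmed10 (log2 1.71 ± 0.13). The 3 that were lower were the cargo adaptors Sec24a (log2 -1.04 ± 0.15) and Sec24b (log2 -1.33 ± 0.15) and the coat GTPase Sar1a (log2 -0.39 ± 0.11). Their paralogs Sec24c (log2 0.78 ± 0.15) and Sec24d (log2 0.74 ± 0.14) were higher. Cytosolic aminoacyl-tRNA synthetases, which charge tRNAs, were higher for 13 of 20 and lower for 0 (median log2 0.74), led by Wars (log2 3.45 ± 0.20). Of 31 proteasome genes 5 were higher and 2 lower (median log2 -0.05), no more than the shares of all tested genes.

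**Figure D3:**
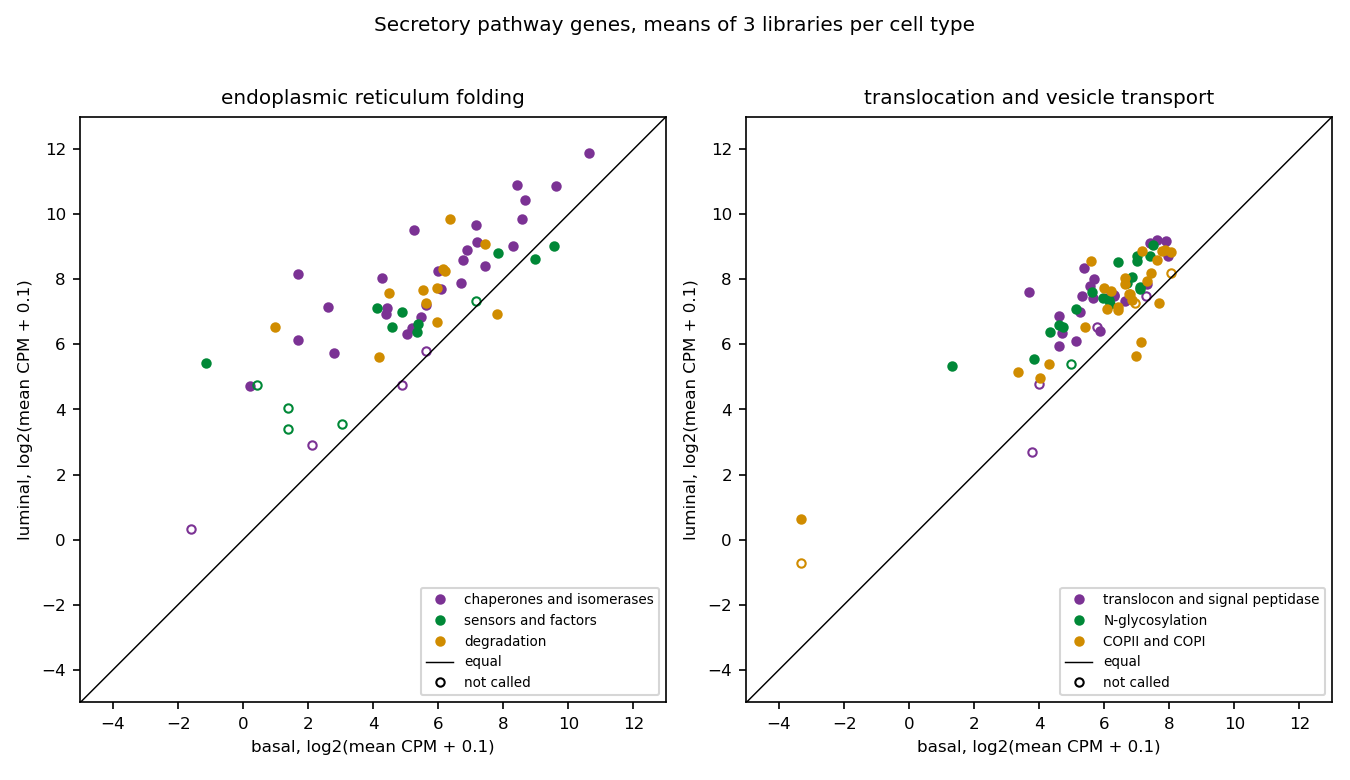
Each point is 1 gene, with the mean of the 3 basal libraries on the horizontal and of the 3 luminal libraries on the vertical axis, both as log2(mean CPM + 0.1), filled where the gene passed the test and open where it did not. Points above the line of equal levels are higher in luminal cells, as are 45 of 57 folding genes and 63 of 74 transport genes by the test.

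Notch ligands sit on one cell and bind receptors on its neighbour. Of 28 tested Notch genes, 12 were lower and 3 higher in luminal cells (median log2 -1.23, -1.21 with bounds). Jag1 was at 185, 217 and 151 CPM in basal and 5.89, 6.54 and 4.51 CPM in luminal libraries (log2 -5.03 ± 0.30 SE, adjusted p = 7.6e-09). Jag2 was at 300.5, 242 and 302 CPM in basal and 2.87, 5.82 and 6.18 CPM in luminal libraries (log2 -5.82 ± 0.34 SE, adjusted p = 5.67e-09), and Dll1 at 81.7, 73.9 and 75.2 and 1.31, 2.13 and 1.42 CPM. Thus 3 of 4 tested ligands were lower in luminal cells, beside 18.6% of all tested genes. Dll4 was under the floor in both layers. The receptors Notch1 (log2 -1.50 ± 0.12) and Notch2 (log2 -2.21 ± 0.13) were lower, and Notch3 was at 0.676, 4.13 and 6.84 CPM in basal and 10.2, 13 and 21.4 CPM in luminal libraries (log2 1.94 ± 0.73 SE, adjusted p = 0.0498). That call of Notch3 was lost without basal replicate 1 or 2 or any 1 luminal replicate (adjusted p 0.0601 to 0.171). It was lost too in the 6 young libraries alone (0.115), there with the replicate block (0.0735) and with no filter (0.051). Of 6 tested targets Hes1 was lower (log2 -1.24 ± 0.17), and the other 5 did not pass.

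Of 30 EGF and FGF genes 16 were lower and 4 higher in luminal cells (median log2 -1.78, -2.15 with bounds). Of 10 ligands of the EGF family, 7 were lower and 1 higher. Hbegf was at 2240, 2169 and 2224 CPM in basal and 244, 298 and 243 CPM in luminal libraries (log2 -3.08 ± 0.12 SE, adjusted p = 1.16e-10). Tgfa (log2 -2.15 ± 0.14) and Areg (log2 -2.25 ± 0.50) were lower too, and Epgn was at 28.8, 22.6 and 18.1 CPM in basal and 0.101, 0 and 0 CPM in luminal libraries. Egf itself was higher in luminal cells, at 0.249, 2.62 and 3.66 CPM in basal and 213, 227 and 182 CPM in luminal libraries. The receptors also split. Egfr, which binds these ligands, was at 469, 358 and 279 CPM in basal and 17.4, 20.4 and 11.6 CPM in luminal libraries (log2 -4.49 ± 0.36 SE, adjusted p = 1.46e-07). Erbb3, a neuregulin receptor, was at 7.22, 11.5 and 14.4 CPM in basal and 165, 147 and 126 CPM in luminal libraries (log2 3.73 ± 0.23 SE, adjusted p = 1.24e-08), and Erbb2, its partner, was higher as well (log2 1.46 ± 0.16). The neuregulins Nrg1 (0.932 against 46.2 CPM) and Nrg2 (0.162 against 26.2 CPM) were lower in luminal cells. The feedback inhibitors Errfi1 (log2 -2.44 ± 0.11) and Lrig1 (log2 -3.94 ± 0.39), Fgfr1 (log2 -2.49 ± 0.16) and Fgfr2 (log2 -2.63 ± 0.12) were lower too.

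Of 39 TGF-beta and BMP genes 26 were lower and 1 higher in luminal cells (median log2 -1.86, -1.79 with bounds). Tgfb1 (log2 -3.54 ± 0.25), the procollagen protease Bmp1 (log2 -4.28 ± 0.54), Bmp2 (log2 -4.39 ± 0.39) and Bmp7 (log2 -1.89 ± 0.18) were lower. Bmpr1b, a type I BMP receptor, was at 0.356, 1.55 and 0.86 CPM in basal and 197, 196 and 177 CPM in luminal libraries, the exception that was higher, and its paralog Bmpr1a was lower (log2 -0.53 ± 0.14). The BMP-induced repressors Id1 (log2 -3.11 ± 0.13 SE, adjusted p = 3.38e-10), Id2 (log2 -3.07 ± 0.19) and Id3 (log2 -2.65 ± 0.12) and the latent TGF-beta binding protein Ltbp4 (log2 -4.66 ± 0.21) were lower.

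**Figure D4:**
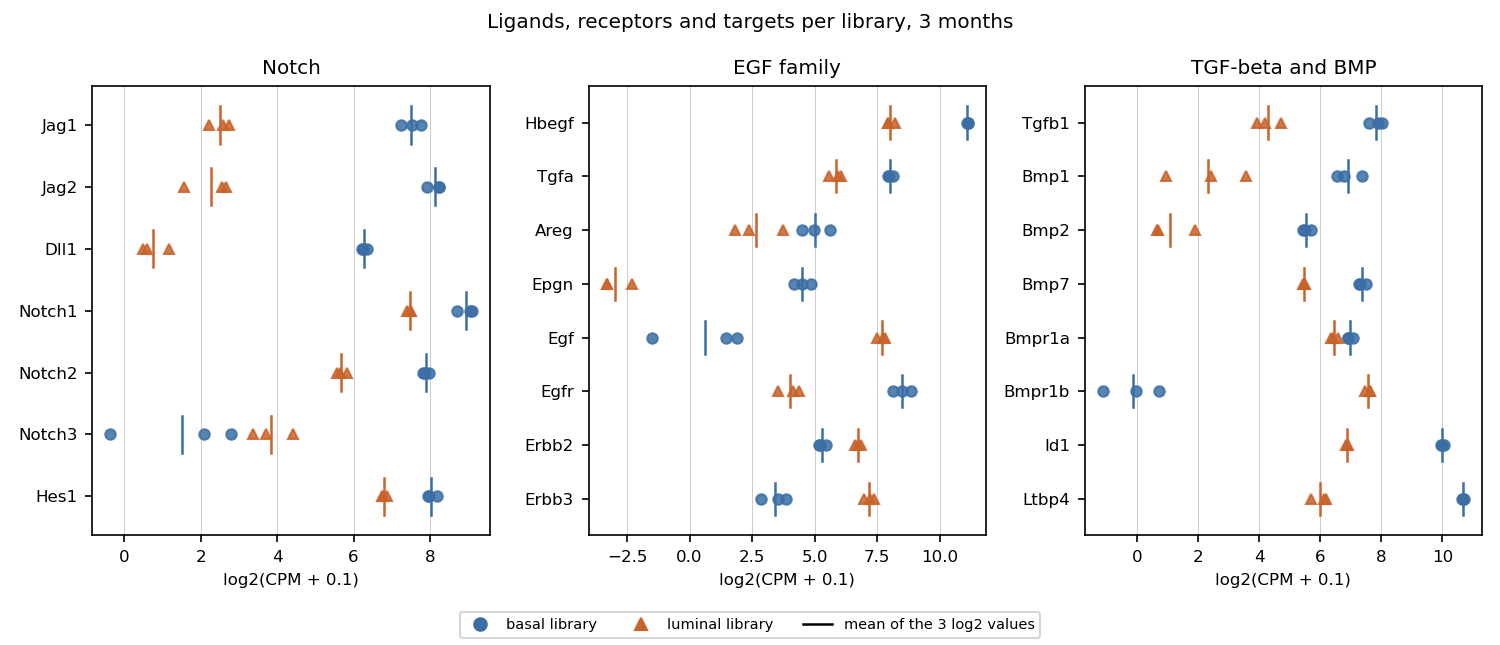
Each point is 1 library and each short line the mean of 3 log2 values, on a horizontal axis of log2(CPM + 0.1). The 3 Notch ligands, Hbegf, Egfr and Bmp2 lie higher in the basal libraries, and Egf, Erbb3 and Bmpr1b higher in the luminal libraries.

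Wnt ligands bind frizzled receptors and steer stem cells of many epithelia, and of 46 tested Wnt genes 14 were lower and 2 higher in luminal cells (median log2 -0.72, -0.65 with bounds). The ligand Wnt11 was at 71.8, 88.8 and 72.6 CPM in basal and 3.98, 2.57 and 2.71 CPM in luminal libraries, and Wnt7b (log2 -1.18 ± 0.23) was lower, as were the receptors Ror2 (log2 -4.56 ± 0.53) and Fzd1 (log2 -3.14 ± 0.28). Wnt4 was at 89.6 against 64.7 CPM and did not pass (adjusted p = 0.093), but was called higher under 4 alternatives (0.0293 to 0.0485), of which 1 left out basal replicate 2 (0.0485). Nor did the target Axin2 pass (24.7 against 18.7 CPM). Of 57 axon guidance molecules, which also act between epithelial cells, 25 were lower and 6 higher (median log2 -1.52, -1.33 with bounds). Epha2 was at 1117, 1262 and 1155 CPM in basal and 85.5, 88.5 and 72.2 CPM in luminal libraries (log2 -3.84 ± 0.16 SE, adjusted p = 2.04e-10), and Efnb1 (log2 -3.53 ± 0.26) and the slit receptor Robo1 (log2 -3.11 ± 0.47) were lower. Sema4a (log2 1.14 ± 0.14), Sema4d (log2 2.37 ± 0.63) and Ephb6 (log2 1.45 ± 0.21) were higher in luminal cells.

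Homeobox and Sox factors that pattern the urogenital tract took both directions. Of 36 lineage factors 15 were lower and 3 higher in luminal cells (median log2 -0.84, -1.08 with bounds). Hoxd13 was at 70.6, 96.2 and 111 CPM in basal and 0.906, 5.28 and 5.11 CPM in luminal libraries (log2 -4.61 ± 0.49 SE, adjusted p = 2.93e-06), and its neighbour Hoxd11 was lower too (log2 -3.83 ± 0.48). Hoxb13, given above, was higher in luminal cells. Irx3 (log2 -2.88 ± 0.41) and Irx5 (log2 -4.39 ± 0.81) were lower. Sox6 was at 53.3, 38.1 and 26 CPM in basal and 0, 0.0485 and 0.129 CPM in luminal libraries, at least 32.3-fold lower. Sox2 was at 13.9, 17.5 and 2.5 CPM in basal libraries and listed at 0 in all 3 luminal libraries. Of factors tied to epithelial or mesenchymal state, Ovol1 (log2 -2.15 ± 0.20) and Snai2 were lower, and Vim (21.3 against 22.1 CPM) and Zeb1 (2.6 against 2.92 CPM) did not pass.

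Of 34 ETS, Klf and Grainyhead factors, 9 were higher and 12 lower in luminal cells (median log2 -0.39). Beside Elf5 and Spdef, the epithelial ETS factors Elf3 (log2 1.97 ± 0.18) and Ehf (log2 1.11 ± 0.15) were higher. Ets1 was at 927, 731 and 590.3 CPM in basal and 12.8, 10.1 and 5.24 CPM in luminal libraries (log2 -6.32 ± 0.35 SE, adjusted p = 3.41e-09), and Etv4 was also lower (log2 -4.00 ± 0.55). Klf4 (log2 -1.50 ± 0.15) and Klf5 (log2 -0.88 ± 0.14) were lower and Klf2 (log2 2.25 ± 0.42) and Tfcp2l1 (log2 2.76 ± 0.28) higher.

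Contractile and caveolar genes were lower in luminal cells for 13 of 24 tested members and higher for 0 (median log2 -1.73, -1.76 with bounds). Tpm1 (log2 -3.71 ± 0.17 SE, adjusted p = 7.56e-10) and Tpm2 (log2 -5.95 ± 0.50), tropomyosins, Flna, filamin A (log2 -4.09 ± 0.13), and Smtn, smoothelin, were lower. Smtn was at 1311, 1292 and 1013 CPM in basal and 17.7, 30.8 and 32.3 CPM in luminal libraries (log2 -5.48 ± 0.23). Of genes that define differentiated smooth muscle, Myh11 was at 53.3, 38 and 35.9 CPM in basal and 26.9, 18.3 and 32.1 CPM in luminal libraries and did not pass. Acta2 (26.4 against 85.9 CPM), Cnn1 (5.66 against 9.16 CPM) and Des (10.5 against 6.45 CPM) did not pass either, and Actg2 was under the floor in basal cells. Acta2 was called lower in luminal cells in the 6 young libraries alone (adjusted p = 0.00339), there with the replicate block (0.00147), on fragment-equivalent counts (7.63e-05) and with limma-voom (0.000722), and Myh11 on fragment-equivalent counts (0.0473). A separate list of smooth muscle markers, without Acta2, summed to 1076 to 1392 CPM in basal and 63.6 to 88.5 CPM in luminal libraries. In the basal libraries most of these reads were those of Smtn. The part of muscle RNA in these contractile genes was not tested. The caveolar coat genes Cav1 (log2 -1.33 ± 0.26) and Ptrf (log2 -2.45 ± 0.18) and the membrane ATPase Ehd2 (log2 -5.38 ± 0.59) were lower in luminal cells.

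Of 39 YAP and immediate-early genes 29 were lower and 6 higher in luminal cells (median log2 -1.50, -1.39 with bounds). Of the Hippo pathway, the coactivators Yap1 (log2 -1.18 ± 0.12) and Wwtr1 (TAZ, log2 -2.11 ± 0.16) and their partner Tead1 (log2 -2.67 ± 0.23) were lower. Their target Cyr61 was at 4331, 4645 and 3763 CPM in basal and 759.9, 856 and 934 CPM in luminal libraries (log2 -2.32 ± 0.11 SE, adjusted p = 7.45e-10). Axl, a receptor kinase, was at 608, 620.5 and 576 CPM in basal and 11.3, 6.93 and 14.6 CPM in luminal libraries. Immediate-early genes, which respond to stimulation within minutes and also to tissue dissociation, were lower for 20 of 26 and higher for 4. Lower members include Egr1 (log2 -2.19 ± 0.14 SE, adjusted p = 1.98e-08), Fosl1 (log2 -3.20 ± 0.20) and Fos (log2 -0.83 ± 0.12). Atf3 (log2 1.05 ± 0.12 SE, adjusted p = 3.84e-06), Jund (log2 0.77 ± 0.09) and Btg2 (log2 1.34 ± 0.13) were higher, and Jun was at 1083, 1155 and 1173 CPM in basal and 1037, 1055 and 1085 CPM in luminal libraries and did not pass (adjusted p = 0.426).

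Prostate luminal cells are known to make and release citrate and to store zinc. Of 18 citrate genes 12 were higher and 2 lower, and of 18 zinc genes 6 were higher and 5 lower, for a joint median log2 of 0.58 (0.57 with bounds). Acly, which splits citrate (log2 1.29 ± 0.16), Pcx (log2 1.74 ± 0.21), and the cytosolic malate dehydrogenase Mdh1 (log2 1.76 ± 0.22) were higher in luminal cells. Mdh2 (log2 -0.78 ± 0.13) and Glud1 (log2 -0.86 ± 0.15) were lower. Among zinc transporters, Slc30a2 was at 0.0712, 3.69 and 2.24 CPM in basal and 66.6, 59.3 and 77.9 CPM in luminal libraries, and Slc39a8 (log2 3.65 ± 0.35) and Slc39a7 (log2 1.71 ± 0.19) were higher. Slc39a1, the transporter held to load prostate cells with zinc, was lower (log2 -0.52 ± 0.17), with adjusted p 0.0538 to 0.125 without basal replicate 1 or 3 or luminal replicate 3. Also lower were Slc30a4 (log2 -1.66 ± 0.21) and Slc39a14 (log2 -2.28 ± 0.28).

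Respiratory chain genes were higher in luminal cells for 18 of 52 and lower for 0 (median log2 0.43). Of 24 complex I genes 10 were higher (median log2 0.58). Of 28 genes of complexes II to V 8 were higher, with a median log2 of 0.12, below that of all tested genes (0.19). Higher members included Sdha (log2 1.01 ± 0.15), Sdhb (log2 0.77 ± 0.19) and Sdhc (log2 0.84 ± 0.17) of complex II and Ndufs7 (log2 2.10 ± 0.30) of complex I. Sdhd, the remaining subunit of complex II, was at 44.5 against 31.9 CPM and did not pass, but was called higher without basal replicate 2 (adjusted p = 0.0214). Glycolytic genes were lower for 7 and higher for 4 of 17 (median log2 -0.25). The glucose transporter Slc2a1 (log2 -1.69 ± 0.10), Hk2 (log2 -1.43 ± 0.12) and Pfkp (log2 -3.77 ± 0.23) were lower, and Ldhb (log2 1.89 ± 0.44) and Tpi1 (log2 0.83 ± 0.13) higher. Lipid genes were split, 8 of 27 higher and 10 lower (median log2 0.15). The fatty acid desaturases Scd1 (log2 2.76 ± 0.18) and Scd2 (log2 2.30 ± 0.12) and Acacb (log2 4.56 ± 0.32) were higher. The sterol genes Hmgcs1 (log2 -1.17 ± 0.28) and Idi1 (log2 -1.41 ± 0.29) were lower.

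Innate defence genes were higher for 17 and lower for 11 of 62 (median log2 0.67, 0.46 with bounds). The share that was lower was near the 18.6% of all tested genes. B2m, the light chain of class I molecules, was at 356, 347 and 364 CPM in basal and 3143, 2507 and 2647 CPM in luminal libraries (log2 2.96 ± 0.11 SE, adjusted p = 1.44e-10), while the heavy chain genes H2-K1 (log2 0.59 ± 0.14) and H2-D1 (log2 0.44 ± 0.10), which have near-identical relatives, were higher too. Of 12 chemokines 6 were lower and 1 higher. Of the lower ones, Cxcl12, which guides leukocytes and stem cells, was at 55, 68.5 and 95.3 CPM in basal and 0.906, 2.76 and 5.28 CPM in luminal libraries. Cxcl17, the one that was higher, was listed at 0 in the basal libraries and at 15.1, 24.1 and 16.9 CPM in luminal libraries. Defb1 (log2 1.85 ± 0.21) was higher and Ifitm3 (log2 -3.44 ± 0.12) lower in luminal cells. Of 20 cell cycle inhibitors and p53 axis genes 5 were higher and 4 lower (median log2 0.31), shares near those of all tested genes. Without luminal replicate 1, 5 of them in all were called. Cdkn1a, p21, was at 520.2, 522 and 426 CPM in basal and 94.8, 90.5 and 75.6 CPM in luminal libraries (log2 -2.49 ± 0.15), and Trp53 was lower (log2 -1.81 ± 0.25). Of 27 proliferation genes 3 were higher and 4 lower, with the cycling marker Mki67 at 36.1 against 10.6 CPM (adjusted p = 0.127). Mki67 was called higher in luminal cells with DESeq2, with limma-voom, on fragment-equivalent counts and in the 6 young libraries with and without the replicate block (adjusted p 0.000641 to 0.0309), and 13 and 15 genes of the list were called with DESeq2 and limma-voom.

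Immune cell markers were near 0. None of 10 T and NK cell markers and 1 of 7 B cell markers passed the filter, and macrophage markers summed to 12.5 to 24.8 CPM in basal and 24.7 to 37.3 CPM in luminal libraries. Of 13 fibroblast markers 2 were lower and 0 higher in luminal cells, and 11 did not pass. The list summed to 2137 to 2530 CPM in basal and 556.7 to 895.5 CPM in luminal libraries. Dcn, the proteoglycan decorin, was at 1184, 1510 and 1409 CPM in basal and 66.9, 57.6 and 122 CPM in luminal libraries (log2 -4.06 ± 0.27 SE, adjusted p = 2.37e-08). The other one was Gsn (log2 -1.02 ± 0.13), which many cell types express and which was at 796, 659 and 868 CPM in basal and 382, 339 and 427 CPM in luminal libraries. Among fibroblast genes that did not pass, basal levels were 4.3, 6.04 and 5.25 CPM for Pdgfra and 2.7, 0.488 and 0 CPM for Lum. Those of Col1a1 were 42.3, 31 and 65.8 CPM. The part of fibroblast RNA in the basal levels of Dcn, Fmod and Col16a1 was not tested. Of 7 smooth muscle markers Smtn was lower. Endothelial markers summed to 65.7 to 110.4 CPM in basal and 4.63 to 14.6 CPM in luminal libraries, and Pecam1, Tie1 and Vwf, 3 of 11, were lower in luminal cells. Tie1 lost its call without basal replicate 2 or any 1 luminal replicate (adjusted p 0.0535 to 0.0579) and with limma-voom (0.0943). Vwf lost its call without basal replicate 3 or luminal replicate 1 or 2 (0.0678 to 0.0929) and in the 6 young libraries alone (0.055). Pecam1 was at 12.4, 13.8 and 20.6 CPM in basal libraries and at 0 in luminal libraries. The part of endothelial RNA in the basal levels of Col4a1 and Col4a2, which endothelium also expresses, was not tested. Urothelial markers summed to 19.6 to 25.9 CPM in basal and 284.2 to 295.8 CPM in luminal libraries, where Upk1a was at 214 against 2.68 CPM and Upk1b at 70.2 against 19.8 CPM. Of the other 2 tested of 6 urothelial markers, Krt20 (0.355 against 0.133 CPM) was under the floor in both layers. Upk2 (3.83 against 0.712 CPM) did not pass, but was called higher with limma-voom (adjusted p = 0.0119) and without basal replicate 1 (0.0103). The part of urothelial RNA in the luminal results was not tested.

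The same contrast at 24 months called 5028 genes (35.4%). Of the 5341 genes called at 3 months, 4049 (75.8%) had the same call at 24 months, which is 80.5% of the calls there, and 5 had the opposite call. The cell type difference itself differed between the ages for 116 genes (0.817%), for 634 with DESeq2, and for 67 without luminal replicate 1 and 54 without luminal replicate 3 of the 3-month libraries. In 75 of the 116 all 4 groups were at or above their floor, and the difference was smaller at 24 months in 61 and larger in 14. Krt5 (log2 -7.84 at 24 months), Svs2 (6.94), Hspa5 (1.03), Jag1 (-5.58) and Foxa1 (-1.36) had the call of 3 months. Fn1, fibronectin, turned from lower in luminal cells (log2 -0.99) to higher (log2 1.24; adjusted p of the difference = 0.017). Krt15 (-4.73 and -3.18 at 3 and 24 months), Apoe (-7.01 and -5.18) and Bmp2 (-4.39 and -2.08) differed less between the layers at 24 months.

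**Figure D5:**
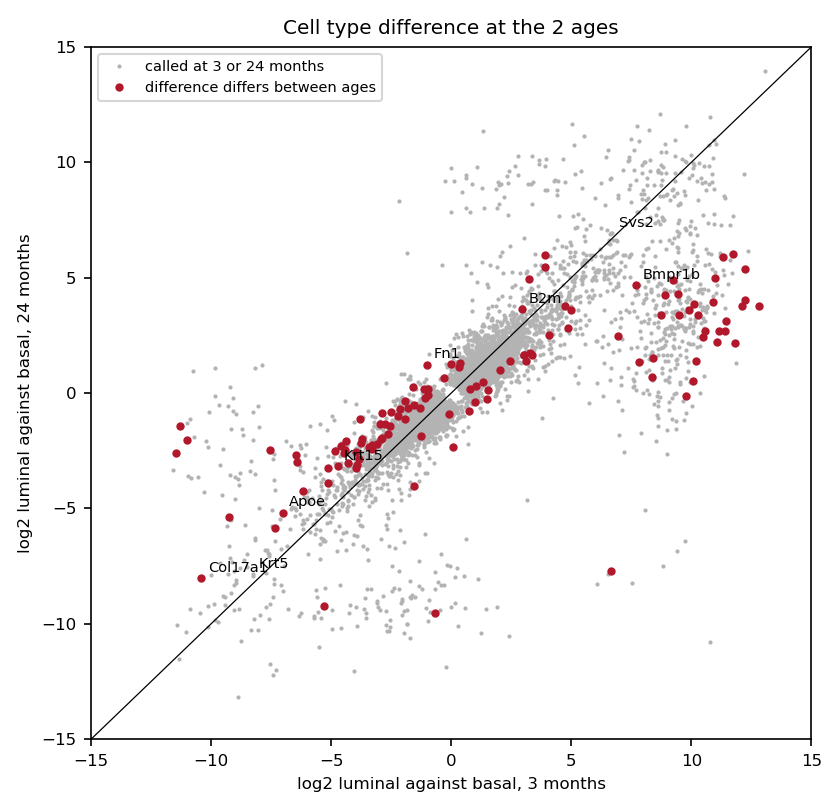
Each point is 1 gene called at 3 or 24 months, with the log2 difference of luminal against basal cells at 3 months on the horizontal and at 24 months on the vertical axis. Red points are the 116 genes whose difference differed between ages, the line marks equal differences, and differences far from 0 on 1 axis only include genes with a group under its floor, whose fitted value depends on the prior count.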

How the data were processed

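RNA-seq libraries of sorted prostate basal and luminal cells of 3 and 24 months were analysed, 12 libraries in all with 3 per group. The authors deposited RSEM expected counts and TPM per gene. Per the submitters' processing notes bcl2fastq 2.17, Bowtie2 2.1.0, RSEM 1.2.15 and the mouse build mm10 were used. Annotation and strand setting were not stated there, so reads of overlapping antisense genes cannot be told apart. Deposited expected counts were rounded. Genes passing filterByExpr (minimum count 10, minimum total 15) entered an edgeR 4.0.16 (R 4.3.3) quasi-likelihood fit of all 12 libraries with a mean per group, TMM factors and 8 residual degrees of freedom. Benjamini-Hochberg adjustment ran over all tested genes, with a threshold of 0.05. Libraries pool 2 mice, and p-values measure the spread between such pools. Removal of repeated reads is not stated in the sources used here. The reads per distinct fragment were estimated from the repeated sizes of low counts, so depth in reads overstates the precision. On simulated reads this estimate came out high, which understates the number of fragments.

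Leading genes were the 12 with the largest ratio of means in each direction among called genes without overlap and with at least 50 CPM in the higher group, with a lower mean raised to the level of 3 fragments. The 10 most abundant genes by TPM in each group and list members were also named. Members and lists were chosen with earlier results of these data known. Other settings were RLE factors, DESeq2 1.42.0, limma 3.58.1 (voom), other filters, fragment-equivalent counts, the 6 young libraries alone, a replicate block, and leaving out each young library. Some genes are not reported here. Promoters came from RefSeq (GRCm38.p6).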

Additional observations from a re-analysis of the deposited data

Results flagged for a closer look

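Of 1073 tested genes of the lists and leading genes, 32 had a difference between luminal and basal cells that itself differed between 3 and 24 months, by the interaction contrast of edgeR's quasi-likelihood fit with Benjamini-Hochberg adjustment over all tested genes. The values in parentheses are the log2 difference at 24 months minus that at 3 months, so that a positive value means a change toward the luminal side. It was positive for 21 and negative for 11, and 26 were closer to 0 at 24 months.

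Matrix and adhesion genes were positive: Agrn (0.82), Bcam (1.27), Col17a1 (2.38), Fn1 (2.23), Lamb3 (1.52), Plec (0.90) and Thbs1 (1.05). So were the keratins Krt15 (1.55) and Krt7 (1.13). Signalling genes with a positive value were Ajuba (1.57), Bmp2 (2.31), Ctgf (2.04), Epha2 (0.98) and Id1 (0.89). Others were Apoe (1.83), B2m (0.69), Ccnd2 (1.90), Pfkp (1.62) and Prom1 (1.53). Pecam1 (8.90) and Sox2 (8.97) were also positive, with 0 in all luminal libraries of 3 months.

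Negative values were found for the immediate-early genes Atf3 (-0.76), Btg2 (-0.84) and Jun (-0.79) and for Bmpr1b (-3.05), Chac1 (-4.49) and Mt1 (-0.62). Srm, spermidine synthase (-1.39), and Farsa, an aminoacyl-tRNA synthetase subunit (-1.53), were negative too. Cnn1 (-8.86), Cxcl17 (-5.72) and Unc5a (-9.55) had the remaining negative values. In Bmpr1b, Chac1, Cnn1, Col17a1, Cxcl17, Pecam1, Sox2 and Unc5a 1 of the 4 groups was under its floor, so that the fitted values of these 8 depend on the prior count and are not sizes of a change.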

How the results depend on the processing

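The number of genes called between the layers at 3 months was 4266 to 6425 over the alternatives, within 1.5 times the 5341 reported, and 4195 to 5301 of those calls were made the same way. Without 1 young library it was 4588 to 5156. With limma-voom 57.0% of the calls were higher in luminal cells instead of 50.6%, and the median log2 of all genes was 0.34 instead of 0.19. The count of genes whose difference differed between ages was 634 with DESeq2 and ranged from 54 to 172 without 1 young library. The cause was not tested.

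List medians near 0 changed sign. That of polyamines was -0.0042 with no filter, -0.23 with a filter of 20 CPM, -0.20 on fragment-equivalent counts, -0.14 in the 6 young libraries alone and -0.14 there with the replicate block. Without 1 library it ranged from -0.14 (luminal replicate 2) to 0.055 (basal replicate 2). With the 20 CPM filter mucin-type glycosylation was -0.21, proliferation -0.56 and proteasome 0.044. Without 1 library the proteasome median ranged from -0.12 to 0.014 (basal replicate 1), that of lipid synthesis from -0.0052 (basal replicate 1) to 0.22, and that of fibrillar collagens from -0.18 (luminal replicate 3) to 0.22.

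The main fit did not pair samples by replicate number. The rule used for pairing, a correlation over 0.1 of deviations in every same-numbered pair, was not met. Failing that rule cannot show that the samples are unpaired. Over all genes the correlations were 0.03, 0.03 and 0.02 at 3 months, each the highest for both libraries of the pair, and -0.01, 0.01 and 0.02 at 24 months. Over genes of at least 20 CPM they were -0.02, 0.02 and 0.05 at 3 months, and 0.055, 0.16 and 0.16 at 24 months, where different numbers gave -0.15 to 0.012. With the replicate block the calls were 1993 higher and 2273 lower in luminal cells, and 116 genes differed between ages. Of 265 called genes named in the report, 254 kept their call under every one of 14 alternatives that tested them. DESeq2 gave no adjusted p for some genes, among them Sbp, Abo and Cldn10, and these were not counted as lost there. The exceptions to the 254 are given beside the gene or are Spinkl, Svs3b and Svs4. Limma-voom did not call these last ones (adjusted p = 0.442, 0.68 and 0.25), and Svs3b was also not called on fragment-equivalent counts (0.0847). Got1, Esrp1, Hoxd9 and Sar1b, called list members that lost their call without 1 library, were left undescribed after this was seen, so that share is not one of the lists. Of 36 named genes that were not called, 14 were called under at least 1 alternative. They are Eef1a1, called higher in luminal cells with 4 settings (adjusted p 4.99e-05 to 0.0491), and others given beside the gene. Reads repeated from few fragments limit genes near the floor.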

Other observations

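Enzymes that start mucin-type O-glycosylation, the sugar chains of secreted mucins, differed by member. Of 21 tested transferases 6 were higher and 5 lower in luminal cells (median log2 1.01, 0.41 with bounds). Of 14 genes of polyamine metabolism, whose products prostatic fluid holds, 3 were higher and 4 lower (median log2 0.0073). Odc1, the enzyme that begins that synthesis, was at 2081, 2369 and 2037 CPM in basal and 449.9, 426 and 360.1 CPM in luminal libraries. Of 22 genes of retinoid and steroid metabolism 6 were higher and 6 lower (median log2 -0.31, -0.27 with bounds).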
